A study of Mus musculus with 24 samples.

Results

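The 8 genes *Ceacam3*, *Ceacam5*, *Ceacam9*, *Ceacam11*, *Ceacam12*, *Ceacam13*, *Ceacam14* and *Ceacam18* were picked by name from a table of 55401 genes as the *Ceacam* genes of the rodent placenta. All 8 were in the table and all 8 passed the expression filter over the 24 libraries. They were chosen partly because *Ceacam18* was lower in C1qtnf6-KO than in WT mice at gd16.5, so every value of the 8 genes in that contrast is given as a description without a test. RNA-seq was made from polyA RNA of the maternal-fetal interface (MFI), the tissue of decidua and placenta, of WT and C1qtnf6-KO mice at 4 stages named by gestation day (gd10.5, gd14.5, gd16.5, gd19.5), with 3 libraries in each of the 8 groups. All animals were on a C57BL/6 background. The KO line (strain C57BL/6JCya) carried a CRISPR/Cas9 deletion of 3 exons of *C1qtnf6* in the whole body, and WT mice served as controls. *C1qtnf6* encodes CTRP6, a hormone-like protein of the placenta. The labels give 1 genotype per library and name no dam, litter, age, fetal sex or library date. Where nothing says that libraries came from separate animals, p-values measure only the spread between these libraries, which may be technical.

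CEACAM proteins are immunoglobulin-domain glycoproteins, related to the pregnancy-specific glycoproteins (PSGs). In mice and rats the family holds a set of genes that are expressed mainly by trophoblast, and *Psg* genes lie among and beside them on the same chromosome. The junctional zone of the mouse placenta, made of spongiotrophoblast, glycogen cells and giant cells, faces the decidua and secretes PSGs, prolactin-family hormones and other proteins toward the mother. CEACAM1 is the widely expressed adhesion receptor of the family, whereas the roles of most of the placental members are little known.

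All 8 genes lie on the plus strand of chromosome 7 (GRCm38) and are protein-coding in GENCODE M21. In order along the chromosome, 7 of them were *Ceacam9* (start 16721929), *Ceacam3* (17150282), *Ceacam5* (17713238), *Ceacam14* (17812633), *Ceacam11* (17972124), *Ceacam13* (18009889) and *Ceacam12* (18065929 to 18077986), within 1356 kb. This stretch held 44 genes of the table, of which 27 passed the filter and 3 were *Psg* genes. *Ceacam18* lies 25557 kb further on, from 43634707 to 43649295. *Ceacam11*, *Ceacam12*, *Ceacam13* and *Ceacam14* are close copies of each other. Their transcripts were between 82.6% and 88.7% identical in BLAST over aligned stretches of 864 to 1058 bases. The transcript of *Ceacam5* was 93.0% identical to that of the predicted gene *Gm5155* over 2993 bases. Reads that fit several of these genes were left out of the counts, so the levels of these genes are uncertain by the share of such reads. The best BLAST match of *Ceacam18* among transcripts of other genes was 141 bases of *Slc26a2* (78.7% identical). That of *Ceacam9* was also short, 124 bases of *Ceacam15* (94.4% identical). The antisense gene *Gm44613* overlaps the end of *Ceacam12* on the opposite strand, and the miRNA gene *Gm22414* lies opposite *Ceacam13*. The counting ignored strand, so reads from the shared stretches cannot be told apart by it.

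The sequence before the transcription start was compared because several of these genes rose together. RefSeq (GRCm38.p6) gave a start for 7 of the 8 genes, and *Ceacam14* had no entry. The windows of 250 bases upstream of the start are printed 5′ to 3′ on the plus strand, for 4 members that rose between gd10.5 and gd14.5 and for *Ceacam9* and *Ceacam18*, which did not. Capitals mark the letters GATAA and TATAAA on either strand, which do not overlap each other here. The windows are chr7:17713002-17713251, chr7:17971917-17972166, chr7:18065679-18065928, chr7:18009639-18009888, chr7:16721679-16721928 and chr7:43634489-43634738.
Ceacam5: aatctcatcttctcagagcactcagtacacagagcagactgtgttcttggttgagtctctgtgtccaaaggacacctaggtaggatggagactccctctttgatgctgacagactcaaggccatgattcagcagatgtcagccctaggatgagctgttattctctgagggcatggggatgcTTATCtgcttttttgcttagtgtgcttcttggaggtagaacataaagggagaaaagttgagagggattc
Ceacam11: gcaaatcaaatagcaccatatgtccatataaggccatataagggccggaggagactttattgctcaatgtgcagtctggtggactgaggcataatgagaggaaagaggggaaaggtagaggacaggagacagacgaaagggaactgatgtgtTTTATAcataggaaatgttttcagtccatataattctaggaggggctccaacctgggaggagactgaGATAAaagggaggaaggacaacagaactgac
Ceacam12: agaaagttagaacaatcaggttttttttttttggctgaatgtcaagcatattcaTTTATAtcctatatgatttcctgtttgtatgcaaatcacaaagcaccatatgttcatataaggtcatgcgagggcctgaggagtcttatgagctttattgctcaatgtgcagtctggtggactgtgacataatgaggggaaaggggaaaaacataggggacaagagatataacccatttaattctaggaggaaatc
Ceacam13: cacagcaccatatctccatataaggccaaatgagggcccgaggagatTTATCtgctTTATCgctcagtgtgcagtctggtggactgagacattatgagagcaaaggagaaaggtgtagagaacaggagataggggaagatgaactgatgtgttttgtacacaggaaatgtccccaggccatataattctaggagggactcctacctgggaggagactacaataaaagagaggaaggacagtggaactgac
Ceacam9: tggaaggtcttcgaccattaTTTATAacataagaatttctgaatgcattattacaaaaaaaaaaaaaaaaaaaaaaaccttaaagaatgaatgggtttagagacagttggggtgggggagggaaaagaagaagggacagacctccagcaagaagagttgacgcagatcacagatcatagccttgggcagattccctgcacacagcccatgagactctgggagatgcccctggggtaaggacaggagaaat
Ceacam18: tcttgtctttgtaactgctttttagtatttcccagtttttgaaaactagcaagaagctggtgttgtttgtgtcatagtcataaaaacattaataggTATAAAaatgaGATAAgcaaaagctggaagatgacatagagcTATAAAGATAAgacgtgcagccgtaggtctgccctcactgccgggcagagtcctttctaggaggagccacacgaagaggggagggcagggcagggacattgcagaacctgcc

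In global alignment the windows of *Ceacam11* and *Ceacam13* shared 206 identical bases (85.8% of 240 aligned bases), the most of any pair. *Ceacam12* shared 135 identical bases with *Ceacam11* (85.4% of 158 aligned bases) and 131 with *Ceacam13* (82.9% of 158), with its matching stretch shifted along the window. *Ceacam3* and *Ceacam5* shared 193 bases (77.5% of 249). The other pairs shared 120 to 145 bases. GATAA on either strand occurred in 5 of the 7 windows, those of *Ceacam3*, *Ceacam5*, *Ceacam11*, *Ceacam13* and *Ceacam18*, against 23% of 27025 genes in windows of the same length. TATAAA occurred in 4 of 7, those of *Ceacam9*, *Ceacam11*, *Ceacam12* and *Ceacam18*, against 13% of genes. Of 3 other strings searched on both strands, GCCNNNGGC was found for *Ceacam9* (13.6% of genes), CACCC for *Ceacam3* and *Ceacam9* (51.3%), and GGAATG for 0 of 7 (12.6%). GATAA was present in members that rose with gestation and in *Ceacam18*, so these letters did not separate the members by their course.

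Total counts were between 20975717 and 37383108 per library. *C1qtnf6* was at 64.7 to 168 CPM (read counts scaled to the TMM library size) in the WT libraries and at 0.0341 to 2.05 CPM in the KO libraries, as their labels say. Markers of spongiotrophoblast, giant cells, labyrinth, decidual stroma and uterine muscle were present in every group. KO gd10.5 replicate 2 stood apart from the other 5 libraries of its stage. Its 10 spongiotrophoblast and glycogen cell markers summed to 12700 CPM against 1200 to 2560 CPM in the others, and 7 NK cell markers to 363 against 682 to 1030 CPM. The giant cell hormone *Prl3d1* was at 151 against 1350 to 2980 CPM. The sum of 10 giant cell markers went the other way, at 11100 against 5810 to 9420 CPM. KO gd10.5 replicate 2 was also the 1 library of gd10.5 with transcripts of Y-linked genes (71.1 CPM over 4 genes, against at most 0.311). Results that rest on it are given with and without it. In bulk samples, fewer cells of a type and less RNA per cell cannot be told apart.

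Between gd10.5 and gd14.5, *Ceacam12*, *Ceacam14*, *Ceacam11*, *Ceacam5*, *Ceacam13* and *Ceacam3* rose steeply in WT and in KO, *Ceacam9* fell in both, and *Ceacam18* stayed at a low level. In WT, *Ceacam12* was at 16.8, 15 and 9.05 CPM at gd10.5 and at 3850, 3960 and 3780 CPM at gd14.5. *Ceacam14* went from 25.1, 24.1 and 19.9 CPM to 3260, 3360 and 3560 CPM. *Ceacam11* went from 87.5, 98.8 and 74.8 CPM to 4940, 5230 and 5470 CPM. Each of these 3 close copies was at 98.8 CPM or less in all 3 libraries of the earlier stage and at 3260 CPM or more in all 3 of the later one. The log2 fold change was 8.15 (SE 1.09, 283-fold) for *Ceacam12*, with an edgeR adjusted p = 6.16e-06. It was 7.20 (SE 1.16, 147-fold, edgeR adjusted p = 4.08e-05) for *Ceacam14* and 5.90 (SE 0.849, 59.9-fold, edgeR adjusted p = 1.28e-05) for *Ceacam11*. *Ceacam5*, the longest transcript of the set, went from 126, 159 and 180 CPM to 5900, 6350 and 6910 CPM, a log2 fold change of 5.36 (SE 0.942, edgeR adjusted p = 9.65e-05). *Ceacam13* rose from 20.4 to 20.6 CPM in the 3 libraries of gd10.5 to 451 to 527 CPM, a log2 fold change of 4.54 (SE 0.788, edgeR adjusted p = 8.69e-05). *Ceacam3* rose least, from 102 to 224 CPM to 800 to 1060 CPM, a log2 fold change of 2.56 (SE 0.510, edgeR adjusted p = 0.000327). The groups did not overlap for any of the 6, but the share of all genes without overlap in this step was not counted. Of the 8 members, 6 were called higher and 1 lower in WT, where a call needed an adjusted p under 0.05 and a log2 fold change beyond 1. Of all 19299 genes tested, 22.5% were called (2036 higher and 2301 lower), and the median log2 fold change was 4.95 over the members against -0.02 over all genes.

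In KO the same 6 members were called higher and *Ceacam9* lower, against 20.1% of all genes called in either direction. The log2 fold changes were 4.97 (SE 0.942) for *Ceacam12*, 4.19 (SE 1.01) for *Ceacam14*, 3.90 (SE 0.772) for *Ceacam11*, 3.30 (SE 0.854) for *Ceacam5*, 2.74 (SE 0.724) for *Ceacam13* and 2.23 (SE 0.503) for *Ceacam3*. The edgeR adjusted p-values were between 0.000236 and 0.00378. The mean of KO gd10.5 holds replicate 2. Without that library the KO log2 fold changes were 8.84, 8.92, 6.90, 7.05, 5.79 and 3.70 in the same order. All 6 were called, against 25.7% of all genes. In a fit of the 6 KO libraries of these 2 stages alone, *Ceacam12* was called (adjusted p = 0.0457), and the other 5 had adjusted p-values between 0.0519 and 0.113. The share of all genes called in that fit is not given here.

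**Figure D1:**
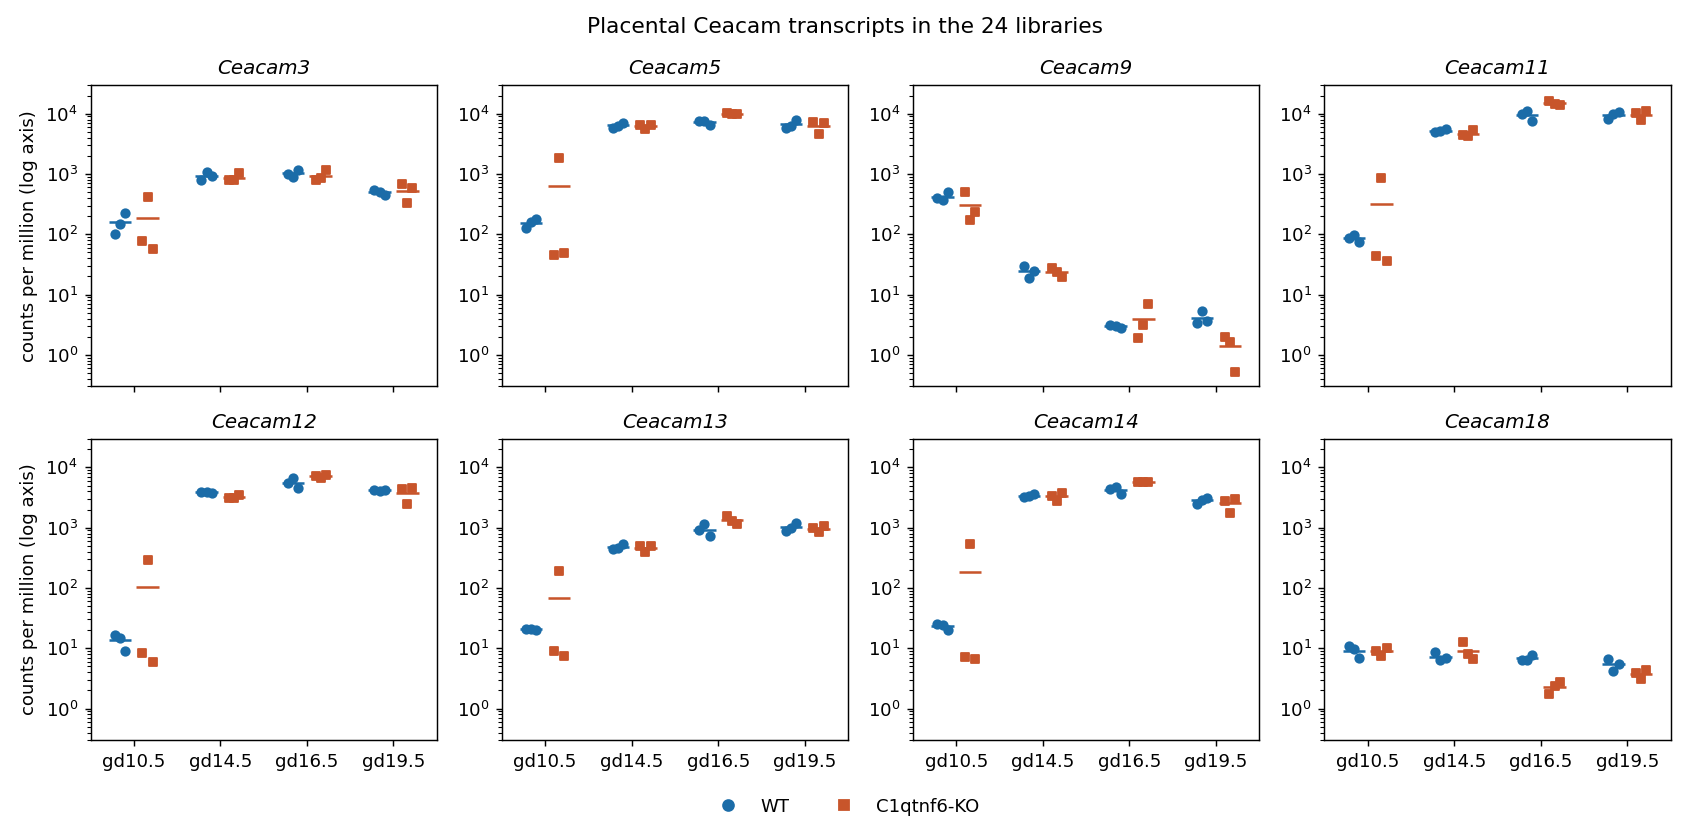
CPM of each member in the 24 libraries, on a log axis, by gestation day, with WT as circles, C1qtnf6-KO as squares and the mean of 3 libraries as a line. The panels of 6 members rise between gd10.5 and gd14.5, *Ceacam9* falls from 171 to 498 CPM at gd10.5 to 7.02 CPM or less from gd16.5 on, and *Ceacam18* stays between 1.74 and 12.7 CPM.

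*Ceacam9* ran the opposite course. In WT it was at 395, 377 and 495 CPM at gd10.5, at 30.3, 19.1 and 24.5 CPM at gd14.5, and at 3.10, 3.05 and 2.77 CPM at gd16.5. In KO it was at 498, 171 and 238 CPM, then at 28.1, 23.9 and 19.6 CPM, then at 1.89, 3.11 and 7.02 CPM. Over these 3 stages every library lay below every library of the stage before, in both genotypes, but the share of all genes that did so was not counted. At gd19.5 the WT libraries (3.43, 5.27 and 3.59 CPM) lay above those of WT gd16.5, a log2 fold change of 0.46 that was not called. The log2 fold change from gd10.5 to gd14.5 was -4.10 (SE 0.390, edgeR adjusted p = 2.05e-07) in WT and -3.66 (SE 0.383, edgeR adjusted p = 4.99e-07) in KO. From gd14.5 to gd16.5 it was -3.05 (SE 0.426, edgeR adjusted p = 5.85e-05) in WT and -2.58 (SE 0.409, edgeR adjusted p = 0.000166) in KO, and *Ceacam9* was the 1 member called in this step in either genotype. Of all genes, 2.32% were called lower in WT and 3.25% in KO.

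The 6 members that had risen were at 327 CPM or more in every library from gd14.5 to gd19.5. From gd14.5 to gd16.5, edgeR called 0 of 6 higher in either genotype, against 2.78% of all genes in WT and 5.36% in KO. At an unadjusted p under 0.05 there were 0 in WT and 2 in KO (in either direction, 31.2% and 35.9% of all genes), and DESeq2 called 1 in KO, *Ceacam11*. *Ceacam11* had a log2 fold change of 0.88 (SE 0.692) in WT and 1.67 (SE 0.705, edgeR adjusted p = 0.0932) in KO, and *Ceacam13* of 0.96 (SE 0.682) and 1.55 (SE 0.691, edgeR adjusted p = 0.110). These standard errors come from a fit of all 24 libraries, which share 1 estimate of the spread that includes KO gd10.5 replicate 2. A fit of the 6 KO libraries of gd14.5 and gd16.5 alone called *Ceacam11*, *Ceacam12* and *Ceacam13* higher, with adjusted p-values of 0.00113, 0.00129 and 0.00128. From gd16.5 to gd19.5, edgeR called 0 of 7 members tested in WT or in KO, against 1.49% and 2.19% of all genes. At an unadjusted p under 0.05 there was 1 in each, *Ceacam3* in WT and *Ceacam9* in KO (20.6% and 21.8% of all genes), and DESeq2 called 0 in WT and *Ceacam9* in KO. For *Ceacam14* in KO, DESeq2 gave no adjusted p in this step. *Ceacam3* had the lowest p-value of the 7 in WT, with a log2 fold change of -1.05 (SE 0.486, edgeR adjusted p = 0.222). It was at 896 to 1180 CPM at gd16.5 and at 456 to 538 CPM at gd19.5, so that the groups did not overlap. The share of all genes without overlap in this step was not counted. In the edgeR fit of those 6 WT libraries alone *Ceacam3* passed, with an adjusted p of 0.00338. The shares of all genes given for these 2 steps are those of the 24-library fit and not of the fits of 6 libraries.

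**Figure D2:**
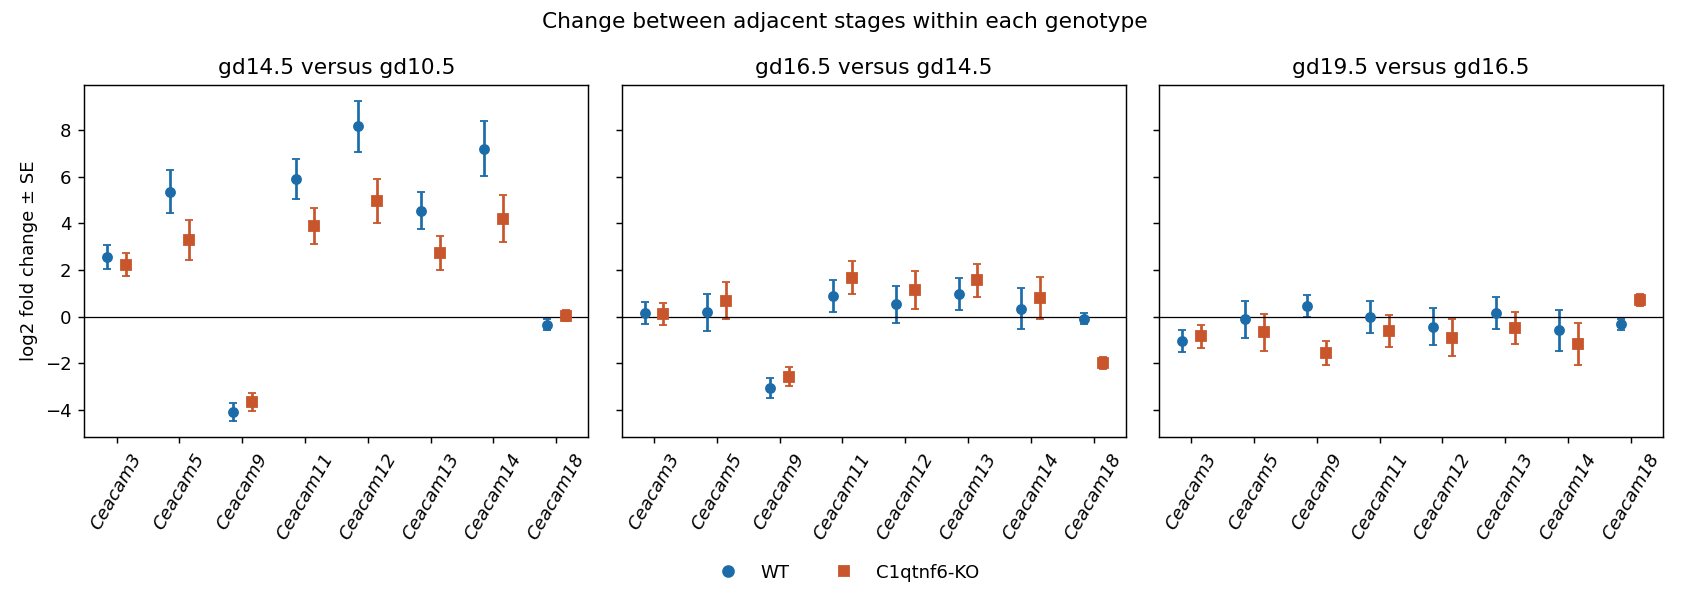
Log2 fold change of each member between adjacent stages, with its standard error as a bar, from an edgeR fit of all 24 libraries, WT as circles and C1qtnf6-KO as squares. In the left panel 6 members lie between 2.23 and 8.15 and *Ceacam9* lies at -4.10 and -3.66, while in the right panel all points lie between -1.56 and 0.71.

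Compared per length, the order of the members at gd10.5 was another than at the later stages. The length was that of all exons listed for a gene. For *Ceacam12* it was 2624 bases, whereas its longest coding transcript has 1827, so its place below *Ceacam5* can depend on this choice. At gd10.5 in WT, *Ceacam9* led with 299 ± 44.9 CPM per kb of listed exons (SD, n = 3), followed by *Ceacam11* with 82.6 ± 11.4, and these did not overlap. *Ceacam3* (48.4 CPM per kb) and *Ceacam5* (47.4) overlapped, as did *Ceacam14* (20.8) and *Ceacam13* (18.9), and *Ceacam12* (5.19) and *Ceacam18* (4.66) at the bottom. From gd14.5 on, *Ceacam11* led in all 6 groups and *Ceacam14* came next. In WT gd14.5 the order was *Ceacam11* (4940 CPM per kb), *Ceacam14* (3060), *Ceacam5* (1950), *Ceacam12* (1470), *Ceacam13* (440), *Ceacam3* (285), *Ceacam9* (17.5) and *Ceacam18* (3.69), and no neighbours overlapped. The order of the first 6 was the same by group means in each later group, with *Ceacam5* and *Ceacam12* overlapping in WT gd16.5, *Ceacam14* and *Ceacam5* in WT gd19.5, and each of the members from *Ceacam14* to *Ceacam13* with the next in KO gd19.5. *Ceacam9* and *Ceacam18* held the last places and changed order, with *Ceacam18* above *Ceacam9* in WT gd16.5 (3.48 against 2.11 CPM per kb) and KO gd19.5 (1.91 against 0.982) without overlap, and *Ceacam9* above *Ceacam18* with overlap in KO gd16.5 and WT gd19.5. Among the 19299 genes, *Ceacam11* had rank 503 per length in WT gd10.5, 6 in WT gd14.5 and 3 in WT gd16.5 and gd19.5, and rank 2 in KO gd16.5. The rank of *Ceacam9* went from 128 to 10478 between WT gd10.5 and gd16.5. The 8 genes took 0.0860% to 0.116% of all counts in WT gd10.5, 2.01% to 2.14% in WT gd14.5, 2.25% to 2.99% in WT gd16.5 and 2.18% to 2.66% in WT gd19.5. In KO the shares were 0.0452% to 0.487%, 1.76% to 2.07%, 3.46% to 3.62% and 1.78% to 2.60%.

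*Ceacam18* lies outside the cluster of the other 7 and was low at every stage. It was at 10.9, 9.80 and 6.81 CPM in WT gd10.5, at 8.61, 6.27 and 6.90 CPM in WT gd14.5 and at 6.69, 4.26 and 5.51 CPM in WT gd19.5. In KO it was at 9.15, 7.50 and 9.93 CPM at gd10.5, at 12.7, 8.07 and 6.66 CPM at gd14.5 and at 3.93, 3.07 and 4.29 CPM at gd19.5. WT and KO libraries overlapped at each of these 3 stages. The change from gd10.5 to gd14.5 had a log2 fold change of -0.34 (SE 0.230, edgeR adjusted p = 0.221) in WT and of 0.04 (SE 0.229, edgeR adjusted p = 0.890) in KO, and neither was called.

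The members were also compared with each other and with all genes over the 24 libraries, as a description in which all points share the stages. Pearson's r of log2 CPM among *Ceacam5*, *Ceacam11*, *Ceacam12*, *Ceacam13* and *Ceacam14* was between 0.979 and 0.997, and *Ceacam3* had an r of 0.882 to 0.943 with them. Over the 18 libraries after gd10.5 the values among *Ceacam5*, *Ceacam11*, *Ceacam12*, *Ceacam13* and *Ceacam14* spread out. They ran from 0.977 for *Ceacam11* with *Ceacam13* to 0.369 for *Ceacam13* with *Ceacam14*. In these libraries *Ceacam3* had an r of -0.268 with *Ceacam13* and -0.119 with *Ceacam11*. Its r was 0.433 with *Ceacam5*, 0.447 with *Ceacam12* and 0.71 with *Ceacam14*. *Ceacam9* was inverse to these 6 over 24 libraries, with r from -0.909 to -0.689. Over the 18 libraries after gd10.5 its r was not inverse to all, from -0.812 with *Ceacam13* to 0.023 with *Ceacam14* and 0.409 with *Ceacam3*. The genes most like *Ceacam12* among 19291 others were *Psg-ps1* (r = 0.999), *Psg28* and *Psg21*. For *Ceacam14* they were the placental cathepsin gene *Cts3* (r = 0.999), *Psg27* and *Psg17*, and for *Ceacam5* they were *Psg27* (r = 0.997), the spongiotrophoblast gene *Tpbpb* and *Cts3*. *Bend5* (r = 0.997 and 0.996) led for *Ceacam11* and *Ceacam13*, followed by *Psg28* and *1600012P17Rik* for *Ceacam11* and by *1600012P17Rik* and *Zfp655* for *Ceacam13*. *Ceacam3* was most like *Ghrh* (r = 0.979), *Map3k21* and the prolactin-family gene *Prl2b1*. *Ceacam9* was most like *Mcm10* (r = 0.982), a DNA replication factor, *Sgo1*, a protector of chromatid cohesion, and *Nudt5*. *Ceacam18* had weaker likeness to any gene, with *Matn2* (r = 0.898) first, then *Klk15* (r = 0.879) and *Usp1* (r = 0.871). *Klk15* lies near it on chromosome 7, from 43933740 to 43939639.

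The 6 members that rose were set against 10 markers of spongiotrophoblast and glycogen cells (*Tpbpa* among them) within each library. The summed CPM of the 6 members divided by that of the markers was 0.184 to 0.206 in WT gd10.5, 0.615 to 0.654 in WT gd14.5, 0.717 to 0.769 in WT gd16.5 and 0.616 to 0.684 in WT gd19.5. The markers themselves summed to 1850 to 2560 CPM, 31200 to 33400 CPM, 31600 to 45200 CPM and 32100 to 44600 CPM. The ratios of WT gd10.5 and WT gd14.5 did not overlap. In KO the ratio was 0.131, 0.323 and 0.134 at gd10.5, 0.595 to 0.638 at gd14.5, 0.676 to 0.721 at gd16.5 and 0.637 to 0.726 at gd19.5.

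**Figure D3:**
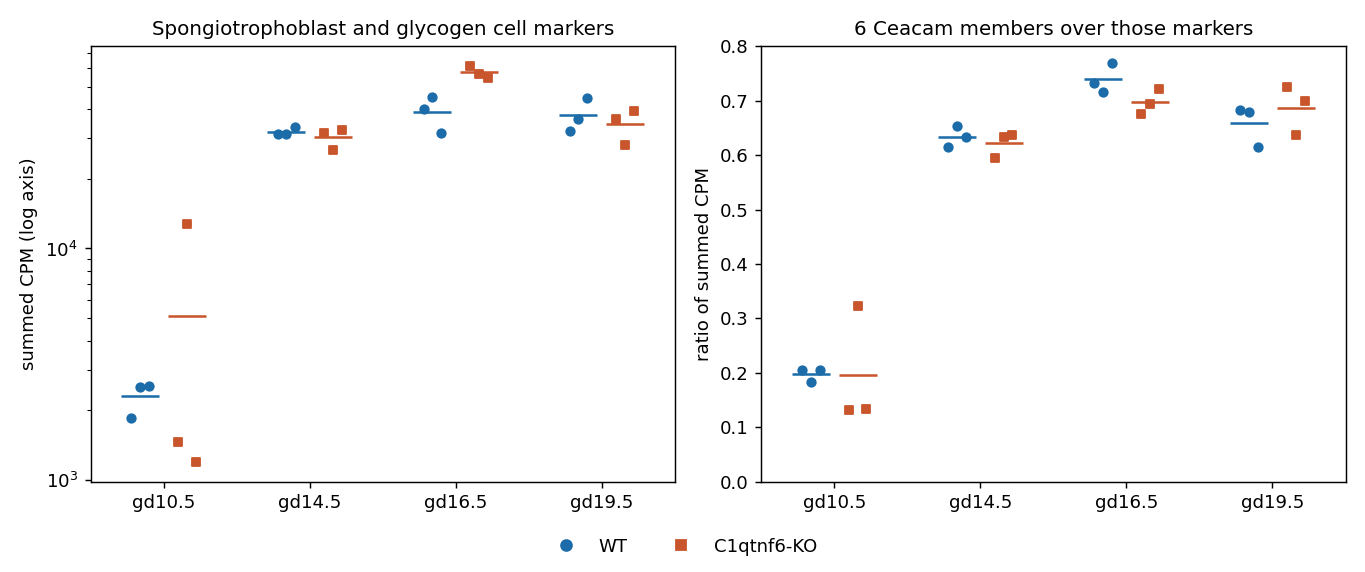
Left, summed CPM of 10 spongiotrophoblast and glycogen cell markers per library on a log axis, and right, the summed CPM of 6 members (*Ceacam3*, *Ceacam5*, *Ceacam11*, *Ceacam12*, *Ceacam13*, *Ceacam14*) divided by it, with lines at group means. The ratio lies at 0.131 to 0.323 at gd10.5 and at 0.595 to 0.769 in all later libraries.

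At gd10.5, edgeR called 0 of 8 members between KO and WT, against 0.00572% of all 17480 genes, with 0 at an unadjusted p under 0.05 (0.801% of genes). The 5 members whose fold change exceeded its standard error on the higher side all changed direction without KO replicate 2. *Ceacam14* was at 7.17, 532 and 6.54 CPM in KO and at 25.1, 24.1 and 19.9 CPM in WT. *Ceacam5* was at 45.6, 1810 and 48.3 CPM in KO and at 126, 159 and 180 CPM in WT, and *Ceacam11* at 42.9, 866 and 35.5 CPM in KO against 74.8 to 98.8 CPM in WT. For each of these 3 genes the values of KO replicate 2 were far above WT and those of the other 2 were below it. Over the highest other library of gd10.5, replicate 2 was 21.2-fold higher for *Ceacam14*, 17.6-fold for *Ceacam12*, 10-fold for *Ceacam5*, 9.18-fold for *Ceacam13*, 8.76-fold for *Ceacam11* and 1.88-fold for *Ceacam3*. A gap of over 5-fold with a level above 1 CPM was found for 5 of the 8 members and for 54 (0.280%) of all 19299 genes. The levels in that library were still 9.43% to 53.9% of the lowest gd14.5 library. With all libraries the log2 fold changes were 2.98 (SE 1.63), 2.91 (SE 1.46), 2.03 (SE 1.38), 1.85 (SE 1.19) and 1.74 (SE 1.19) for *Ceacam14*, *Ceacam12*, *Ceacam5*, *Ceacam11* and *Ceacam13*. Without replicate 2 they were -1.74 (SE 0.159), -0.94 (SE 0.302), -1.72 (SE 0.158), -1.15 (SE 0.148) and -1.30 (SE 0.137), and *Ceacam3* was at -1.22 (SE 0.328) against 0.24 (SE 0.762) with all libraries. The edgeR adjusted p-values were then 0.0533 for *Ceacam14* and *Ceacam5*, 0.0796 for *Ceacam13*, 0.184 for *Ceacam11* and 0.999 for the other members, so that 0 of 8 were called, against 0.0336% of all genes. The 2 remaining KO libraries lay wholly below WT for 6 of 8 members, against 10.7% of all genes. Their spongiotrophoblast and glycogen cell markers summed to 1460 and 1200 CPM, below the 1850 to 2560 CPM of WT, and the ratio of the 6 members to these markers was 0.131 and 0.134 against 0.184 to 0.206. *Ceacam9* had a log2 fold change of -0.48 (SE 0.383) and *Ceacam18* of -0.05 (SE 0.219) at this stage, with an edgeR adjusted p of 1 for both, and without replicate 2 they were at -0.19 (SE 0.305) and 0.06 (SE 0.221).

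**Figure D4:**
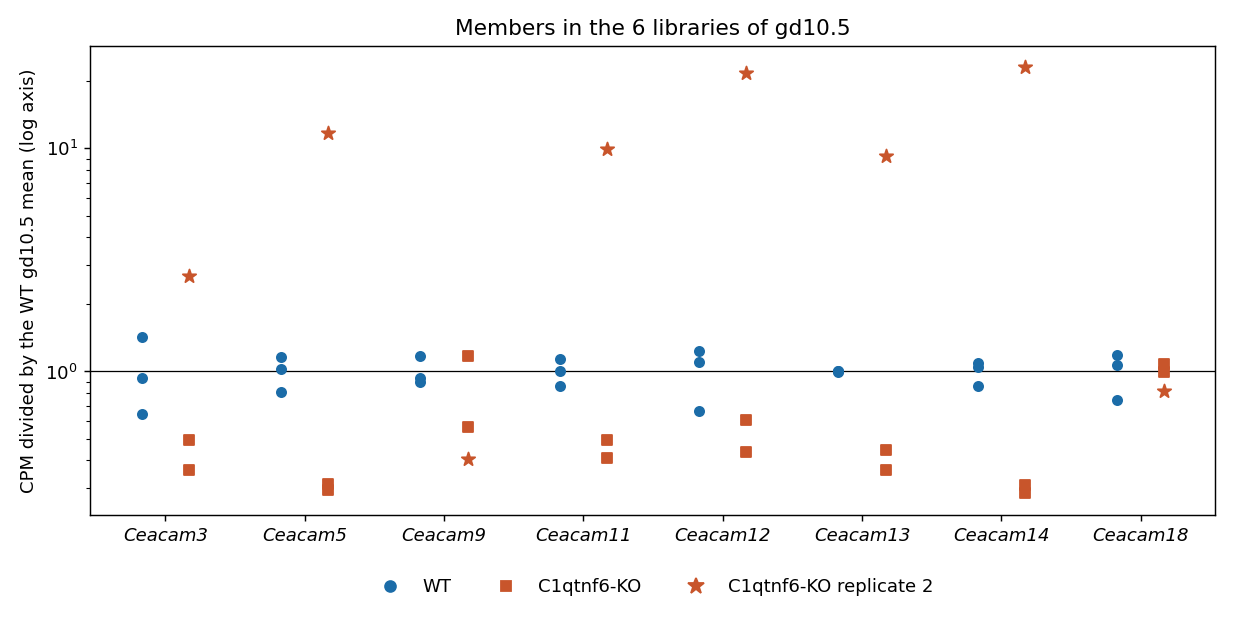
CPM of each member in the 6 libraries of gd10.5 divided by the mean of the 3 WT libraries, on a log axis, with WT as circles, C1qtnf6-KO replicates 1 and 3 as squares and replicate 2 as a star. For 6 members the star lies above all WT points and both squares lie below them.

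At gd14.5, edgeR called 0 of 8 members between KO and WT, against 0.0166% of all 18024 genes, with 1 at an unadjusted p under 0.05 (6.78% of genes) and 0 called by DESeq2. *Ceacam12* was at 3130, 3130 and 3440 CPM in KO and at 3850, 3960 and 3780 CPM in WT, so that the KO libraries lay wholly below WT, as they did for 6.1% of all genes. Its log2 fold change was -0.26 (SE 0.0955, edgeR adjusted p = 0.698). The other 7 overlapped, with log2 fold changes from -0.16 (*Ceacam11*, SE 0.117) to 0.32 (*Ceacam18*, SE 0.218).

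At gd19.5, edgeR called 0 of 8, against 0.023% of all 17397 genes, with 2 at an unadjusted p under 0.05 (13.5% of genes). *Ceacam9*, low by then, was at 2.01, 1.64 and 0.511 CPM in KO (46, 48 and 15 counts) and at 3.43, 5.27 and 3.59 CPM in WT (86, 141 and 86 counts). The KO libraries lay wholly below WT, as for 8.58% of all genes. The log2 fold change was -1.62 (SE 0.365) with an edgeR adjusted p = 0.144. DESeq2 on the same 6 libraries and edgeR without the expression filter both called it, with adjusted p-values of 0.00175 and 1.57e-13. Over its alternatives the adjusted p ran from 1.57e-13 to 0.492, so the call depended on the settings. The alternatives used the same KO and WT libraries of this stage and add no independent evidence. *Ceacam18* had a log2 fold change of -0.57 (SE 0.191, edgeR adjusted p = 0.266) and groups that overlapped. The other 6 had log2 fold changes between -0.20 (*Ceacam14*, SE 0.187) and 0.06 (*Ceacam3*, SE 0.210).

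Over gd10.5, gd14.5 and gd19.5 together, an additive edgeR fit of 18 libraries called 0 of 8 members, against 0.00521% of all 19206 genes, with 1 at an unadjusted p under 0.05 (6.36% of genes). DESeq2 also called 0 at gd10.5 and in the additive fit, but in both it gave no adjusted p for *Ceacam5*, *Ceacam11*, *Ceacam12*, *Ceacam13* and *Ceacam14*. The lowest p-value was that of *Ceacam9*, with a log2 fold change of -0.53 (SE 0.235, edgeR adjusted p = 0.779). A test of whether the KO effect differed between these 3 stages gave 0 of 8 members and 0% of all genes in edgeR, and 0 of 8 in DESeq2. The 1 member with an unadjusted p under 0.05 was *Ceacam12* (edgeR adjusted p = 1). Without KO gd10.5 replicate 2, *Ceacam5* (edgeR adjusted p = 0.0244), *Ceacam13* (0.0358) and *Ceacam14* (0.0358) passed this test, as did 0.0662% of all 19623 genes. In the fits of single stages the KO effect of these 3 genes was -1.72, -1.30 and -1.74 at gd10.5 without that library and -0.04, -0.07 and -0.04 at gd14.5.

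At gd16.5, the contrast the choice of genes used, *Ceacam18* was at 6.45, 6.32 and 7.79 CPM in WT (156, 143 and 160 counts) and at 1.74, 2.37 and 2.74 CPM in KO (35, 77 and 60 counts). The highest KO value was below the lowest WT value. The log2 fold change was -1.57 (SE 0.196, 2.96-fold lower) and lay between -1.70 and -1.42 over all alternatives, leaving out each library in turn included. These refits used the libraries by which the genes were chosen, so this range is a description and not a test. WT replicate 1 and KO replicates 1 and 2 held transcripts of Y-linked genes (89.2 to 194 CPM) and of yolk sac endoderm (5570 to 18500 CPM). In these 3 libraries *Ceacam18* was at 6.45 CPM in WT and at 1.74 and 2.37 CPM in KO. In the 3 others, with 0.487 to 1.14 and 64.2 to 135 CPM, it was at 6.32 and 7.79 CPM in WT and at 2.74 CPM in KO. The part of these transcripts in the difference was not tested. All 3 KO values at gd16.5 were below the lowest of the other libraries, 3.07 CPM in KO gd19.5. The nearest genes that passed the filter had log2 fold changes near 0. *Zfp719*, a zinc finger gene before it, was at 13.7, 13.4 and 12.7 CPM in WT and at 14.8, 13.6 and 12.9 CPM in KO, with a log2 fold change of 0.06 (SE 0.0979). *Siglece*, a sialic acid receptor gene of myeloid cells behind it, had 0.07 (SE 0.317).

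Of the 7 NK cell markers, the summed level moved with *Ceacam18* at gd16.5, at 35.0 to 56.0 CPM in WT and at 12.9 to 19.8 CPM in KO. Most of the sum came from 2 of the 7, *Prf1* (20.2 to 36.8 CPM in WT, with all 3 KO libraries below that range and the lowest at 5.86 CPM) and *Gzmb* (13.1 to 17.1 against 4.13 to 7.07 CPM), which encode the cytotoxic granule proteins perforin and granzyme B. The receptor genes that define NK cells were at or near 0 in both groups, *Ncr1* with 0 to 3 and *Klrb1c* with 0 to 2 counts per library. *Eomes* (1.16 to 2.14 against 1.15 to 1.42 CPM), *Klrk1* and *Gzma* overlapped. Summed markers of 4 other cell types were also wholly lower in KO at gd16.5. They were those of uterine epithelium and glands (58.3 to 102 against 105 to 168 CPM), decidual stroma (2980 to 3330 against 3650 to 4140 CPM), uterine smooth muscle (391 to 471 against 511 to 702 CPM) and labyrinth trophoblast (531 to 771 against 772 to 920 CPM). Neutrophil, endothelial, fetal red cell and yolk sac markers overlapped between the groups. The part of any of these in the difference of *Ceacam18* was not tested.

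**Figure D5:**
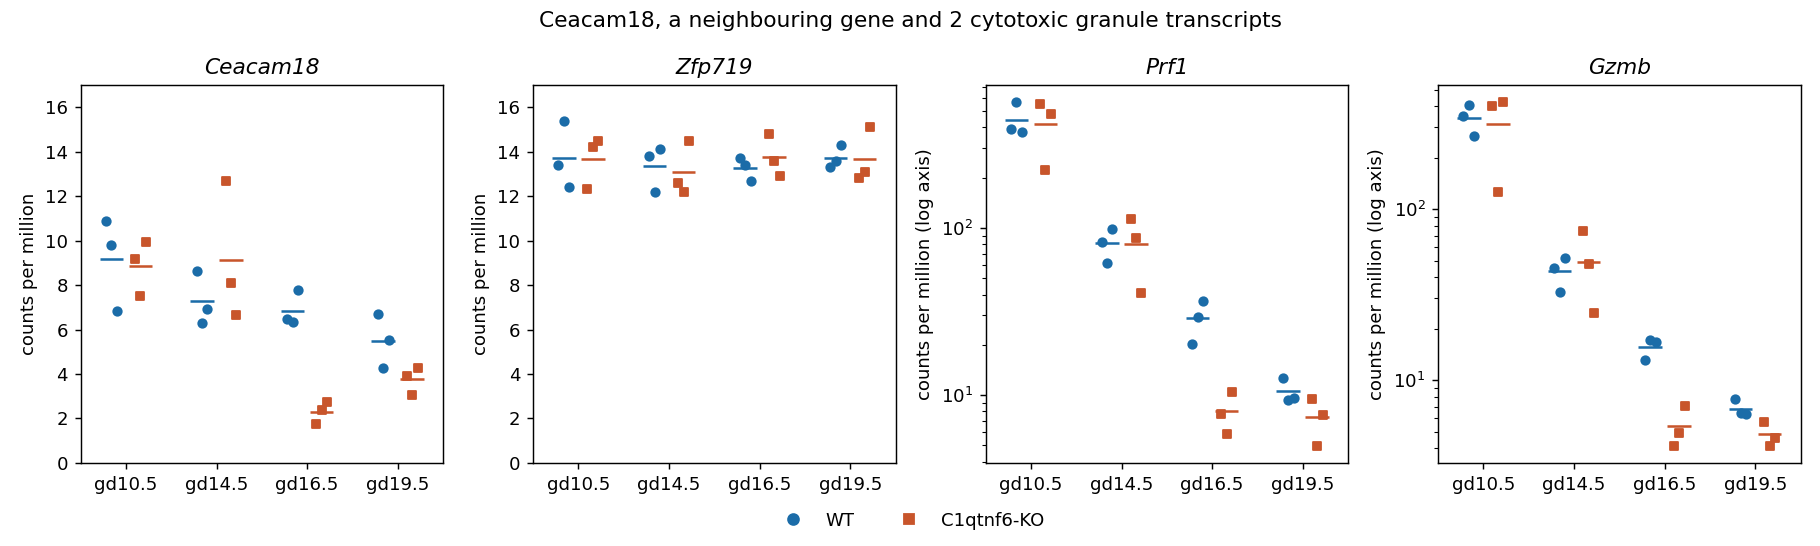
CPM of *Ceacam18* and of its neighbour *Zfp719* on linear axes from 0, and of *Prf1* and *Gzmb* on log axes, in the 24 libraries by gestation day, with WT as circles, C1qtnf6-KO as squares and group means as lines. At gd16.5 the 3 KO points of *Ceacam18*, *Prf1* and *Gzmb* lie below the 3 WT points, and those of *Zfp719* lie at 12.9 to 14.8 against 12.7 to 13.7 CPM.

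At the same stage 4 of the members that had risen by gd14.5 went the other way. *Ceacam11* was at 16000, 14700 and 13900 CPM in KO and at 9980, 11200 and 7650 CPM in WT, *Ceacam5* at 10200, 9970 and 10000 against 7480, 7580 and 6600 CPM, and *Ceacam14* at 5710, 5680 and 5780 against 4460, 4790 and 3620 CPM. For these 3 genes and *Ceacam13* every KO library lay above every WT library, as for 8.11% of all genes, and *Ceacam18* was the 1 member wholly below, as 9.62% of genes were. The log2 fold changes were 0.64 (SE 0.163), 0.49 (SE 0.109), 0.43 (SE 0.129) and 0.55 (SE 0.193) in the order *Ceacam11*, *Ceacam5*, *Ceacam14* and *Ceacam13*. *Ceacam12* (0.36, SE 0.161), *Ceacam3* (-0.12, SE 0.172) and *Ceacam9* (0.44, SE 0.426) overlapped. The 10 spongiotrophoblast and glycogen cell markers moved in the same direction, with 54700 to 61500 CPM in KO and 31600 to 45200 CPM in WT, as did 10 markers of giant cells with 27500 to 31800 against 18200 to 25700 CPM and the *Psg* genes with 84300 to 92300 against 60300 to 72400 CPM. The ratio of the 6 members to the markers was 0.676, 0.694 and 0.721 in KO and 0.733, 0.717 and 0.769 in WT. Gene by gene the ratios at this stage differed in direction. *Ceacam11* was at 0.254 to 0.261 of the marker sum in KO and 0.242 to 0.249 in WT, and *Ceacam12* at 0.118 to 0.136 against 0.138 to 0.150, neither of which overlapped. The share of all genes whose ratio to these markers did not overlap was not counted, so this is a description only. *Ceacam14* was at 0.0929 to 0.106 against 0.106 to 0.115, with the nearest values alike to 3 digits, and *Ceacam3*, *Ceacam5* and *Ceacam13* overlapped.

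The rest of the *Ceacam* family and the *Psg* genes were counted from lists. Of 14 other *Ceacam* genes, 8 were in the table and 6 passed the filter. The widely expressed *Ceacam1* had group means of 28.7 to 40.2 CPM and was called in no step. From gd10.5 to gd14.5 *Ceacam19* rose (log2 fold change 4.72 in WT and 2.75 in KO, edgeR adjusted p = 6.31e-08 and 4.94e-06). *Ceacam10* fell (-3.32 and -3.09, edgeR adjusted p = 4.69e-07 and 1.02e-06), as did *Ceacam16* (-1.99 and -1.61, edgeR adjusted p = 0.00345 and 0.0132). Without KO gd10.5 replicate 2 the KO values of these 3 genes were 2.83, -3.48 and -1.95, and each was called. *Ceacam19* had 1 to 3 counts per library in WT and 4 to 5 in KO at gd10.5. *Ceacam16* had 3 to 12 in WT and 1 to 19 in KO at gd14.5. The sizes of the changes of these 2 genes are therefore uncertain. The pseudogene *Ceacam-ps1* rose in both later steps, by 3.73 and 2.79 in WT and by 5.67 and 1.44 in KO (edgeR adjusted p from 2.06e-06 to 0.0457). *Ceacam15* rose from gd16.5 to gd19.5 in WT (1.27, edgeR adjusted p = 0.0475) and from gd14.5 to gd16.5 in KO (1.42, edgeR adjusted p = 0.00782). Between KO and WT, edgeR called 0 of the other *Ceacam* genes at each stage (at an unadjusted p under 0.05, 0, 2, 1 and 1 from gd10.5 to gd19.5), and *Ceacam15* at gd19.5 had the lowest adjusted p, with a log2 fold change of 0.57 (SE 0.0859, edgeR adjusted p = 0.0540).

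Of 17 *Psg* genes, 14 were in the table and all 14 passed. From gd10.5 to gd14.5, 11 were called higher in WT and 11 in KO, with *Psg20* and *Psg22* called lower in WT. The median log2 fold change was 6.33 in WT and 3.74 in KO. The *Psg* sum in KO gd10.5 was 6300 CPM in replicate 2 and 1850 and 1280 CPM in the other 2, and without replicate 2 the KO median was 7.61, with 11 called higher and 1 lower (*Psg22*). The largest changes were those of *Psg-ps1* (7.96), *Psg23* (7.75) and *Psg21* (7.66) in WT and of *Psg26* (5.49, or 7.01 without replicate 2), *Psg16* (5.48, or 7.07) and *Psg23* (5.00, or 7.97) in KO, with edgeR adjusted p-values of at most 4.70e-05. From gd14.5 to gd16.5 *Psg26* and *Psg16* rose further, by 1.85 and 1.80 in WT and by 2.59 and 2.53 in KO, with edgeR adjusted p-values from 0.000886 to 0.0172. From gd16.5 to gd19.5, edgeR called 0 of 14 in either genotype, with 2 in WT and 3 in KO at an unadjusted p under 0.05. Between KO and WT, edgeR called 0 of 14 at each stage, with 0, 2, 9 and 0 from gd10.5 to gd19.5 at an unadjusted p under 0.05. At gd16.5, where all 9 were higher in KO, 11.1% of all genes had such a p.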

How the data were processed

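PolyA RNA of the MFI was measured in 24 libraries of 8 groups. According to the submitters' processing notes and the study's methods, the authors trimmed reads with Trim Galore 0.6.4, aligned them to GRCm38 with STAR 2.7.3a and assigned them to genes with featureCounts of Subread 2.0.0. Its defaults do not use strand and discard multi-mapping reads. The deposited values are raw counts without normalization. KO replicate numbers follow the library descriptions.

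The members and lists were chosen with earlier results of these data known. All genes were tested with edgeR 4.0.16 (quasi-likelihood, TMM) in R 4.3.3. filterByExpr was applied first, at a count of 10 and a total of 15. KO was compared with WT on the 6 libraries of a stage. The additive and interaction fits used 18 libraries, and stages were compared in 1 fit of 24. A gene was called at an adjusted p (Benjamini-Hochberg) below 0.05 with a log2 fold change larger than 1 in size. CPM used TMM library sizes, and correlations used log2 CPM with a prior count of 2. RefSeq windows and GENCODE M21 transcripts were compared with Biopython 1.88 and BLAST 2.17.0. The steps were tested on simulated counts with known changes.

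Genes named are the members, *C1qtnf6*, the other *Ceacam* genes past the filter, up to 3 called *Psg* genes with the largest change per stage step, the 3 genes most like each member and the neighbours of *Ceacam18*. Single markers were named after their values were seen. The detection floor of 3 counts was 0.0773 to 0.149 CPM, which covers counting error only, and all members were above it in every library. Libraries of 1 group were not duplicates (chi-square per degree of freedom 7.86 to 169). Alternatives were RLE size factors, no filter or at least 10 counts in every library, other sets of libraries, a replicate block, a Y-linked covariate, DESeq2 1.42.0, no fold-change threshold and leaving out each library in turn.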

Additional observations from a re-analysis of the deposited data

How the results depend on the processing

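The 7 calls between gd10.5 and gd14.5 were made in WT under every edgeR alternative run, and in KO under all but the fit of the 6 libraries alone, which called 2 members (*Ceacam9* and *Ceacam12*). DESeq2 gave no adjusted p for *Ceacam5* and *Ceacam14* in this step and called the other 5, and it gave none for *Ceacam5*, *Ceacam11*, *Ceacam12*, *Ceacam13* and *Ceacam14* between KO and WT at gd10.5 and in the additive fit. From gd14.5 to gd16.5 in KO, 1 member was called as reported, 2 without the expression filter, 2 by DESeq2 and 4 in the fit of the 6 libraries alone. From gd16.5 to gd19.5 in KO, 0 were called as reported, 1 (*Ceacam9*) without the filter and by DESeq2, 1 (*Ceacam14*) in the fit of the 6 libraries alone, and between 0 and 1 when 1 library was left out (*Ceacam9*, without KO gd16.5 replicate 1). For *Ceacam14* in this step in KO, DESeq2 gave no adjusted p. In WT the same step had 0, and 1 in the fit of the 6 libraries alone. The counts of members under alternatives are given here without the shares of all genes called in the same fits. They cannot be read as particular to the members. Between KO and WT at gd10.5, Y-linked expression as a covariate raised the count from 0 to 1 (*Ceacam5*) and turned *Ceacam5*, *Ceacam11*, *Ceacam12*, *Ceacam13* and *Ceacam14* to -1.76, -1.17, -0.97, -1.33 and -1.80. The Y-linked sum was 71.1 CPM in KO gd10.5 replicate 2 and at most 0.311 CPM in the other libraries of the stage. Without KO gd10.5 replicate 2 the same 5 were at -1.72, -1.15, -0.94, -1.30 and -1.74, and in the additive fit at -0.48, -0.35, -0.37, -0.37 and -0.48, whereas the highest values with another library left out were 2.59, 2.40, 3.49, 2.29 and 3.56 at gd10.5 and 0.73, 0.64, 0.91, 0.58 and 1.00 in the additive fit. The count of the interaction test was 3 without KO gd10.5 replicate 2 and 0 without any other single library. At gd19.5, 1 member (*Ceacam9*) was called without the filter and 1 (the same gene) by DESeq2. Without WT gd19.5 replicate 3 *Ceacam13* was at 0.01 and without KO gd19.5 replicate 2 *Ceacam14* was at 0.01, with lowest values of -0.23 and -0.34 when another library was left out. Replicate numbers did not pair the libraries: the correlation of same-numbered libraries ran from -0.455 to 0.406, and in 0 comparisons were all pairs over 0.1. With the replicate block, *Ceacam5*, *Ceacam13* and *Ceacam14* at gd10.5 were at -0.32, -0.01 and -0.17, and the count of calls was the same as without it in every comparison. RLE size factors moved group medians by at most 0.009. The fold change of *Ceacam18* at gd16.5 kept its direction under every alternative, but these used the libraries by which the genes were chosen and are no test of it. The causes were not tested. Counts were low for *Ceacam9* at gd19.5 (15 to 141 per library) and gd16.5 (38 to 154) and for *Ceacam18* (35 to 402). The fit of the other *Ceacam* and *Psg* genes without KO gd10.5 replicate 2 was chosen after seeing the data. Members within 1 standard error of no difference (30 gene and comparison pairs) were not followed across alternatives.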
